A study of Mus musculus with 4 samples.

Results

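The forkhead genes encode transcription factors that share a winged-helix DNA-binding domain, and here they are the autosomal protein-coding genes of the mouse annotation (GENCODE vM21, build mm10) whose symbol starts with Fox, without Foxred1 and Foxred2, which are not forkhead factors. The rule found 41 genes among 20807 autosomal protein-coding genes, and it used no measured value. The study read cytosine methylation by whole genome bisulfite sequencing in the brain of 4 male mouse embryos at E11.5, 1 embryo per library and 1 library per group: Tet1 KO and WT from dams fed 30 ppm folic acid (FA, the excess diet), and Tet1 KO and WT from dams fed 3 ppm FA (the control diet). All embryos were of the 129S6.cg Tet1<tm1Koh> line, whose KO allele carries a cassette inserted at the start of the coding sequence and was made in another strain before transfer to 129S6, and all dams were Tet1 HET and had been kept on their diet for at least 4 weeks before mating. The study's custom diets all held 1% succinylsulfathiazole, an antibiotic that suppresses folate-making gut bacteria. In the study's list of embryos the KO pair is given as having neural tube defects and the WT pair as normal, and each of the 4 came from its own litter, so that genotype, defect and litter cannot be told apart. CpG reads do not measure transcripts, so neither the loss of Tet1 transcript nor brain marker expression could be checked in these files, and each level is an average over all cells of the brain.

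TET1 oxidises 5-methylcytosine, which is a step towards its removal, and it binds mainly at CpG-rich DNA. Many genes for developmental transcription factors lie in long stretches of CpG-rich DNA that stay unmethylated, including in tissues where the gene is silent. In the embryonic head, forkhead factors pattern the floor plate (Foxa2), the neural crest (Foxd3) and the mesenchyme around the brain (Foxc1), and others such as the Foxo proteins act in most tissues.

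Levels are percentages of reads that were methylated, summed over the CpGs of a region with 5 or more reads in every library, and pairs of values are given in the order KO, WT. The study's methods name no oxidation step for these libraries, unlike its reduced representation ones. The levels may therefore include 5-hydroxymethylcytosine, the oxidised form. By dot blot the study found this form close to background in E11.5 brain of WT and KO. The mean coverage of autosomal CpGs was 13.2 in the KO and 14.3 in the WT library at 30 ppm, and 21.2 and 16.2 at 3 ppm, and 14907672 autosomal CpGs met the minimum. The mean level over these CpGs was 83.5% in KO against 81.4% in WT at 30 ppm, and 82.8% against 82.1% at 3 ppm, so KO stood 2.03 and 0.688 points higher genome-wide. Mitochondrial CpGs, which should read as unmethylated, gave 0.914% to 0.938% in the 4 libraries. With 1 library per group there is no replicate check: Fisher's exact test compares the reads of a pair of libraries, not the conditions, and its p-values and the 95% Wilson intervals cover counting error only. The same holds for the Wald test of diet dependence used below. A difference between the diets therefore cannot be told apart from one between single embryos or litters.

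Because the differences described here are differences at CpGs, the DNA of 7 stretches is shown, with every CpG in capitals. They are from differentially methylated regions (DMRs) that the authors listed at forkhead genes, and from the start window of Foxn4, and each runs 5′ to 3′ on the strand of the gene (RefSeq sequence of GRCm38.p6). The lines give Foxc1 downstream of the gene (chr13:31815062-31815361, + strand), Foxi2 in the coding part of an exon (chr7:135411613-135411912, +), Foxd2 upstream of the gene (chr4:114910667-114910854, −), Foxj2 in an intron (chr6:122821225-122821468, +), 2 introns of Foxp1 (chr6:99203231-99203396, chr6:99013988-99014287, both −) and Foxn4 just inside the gene (chr5:114273269-114273568, −).
Foxc1: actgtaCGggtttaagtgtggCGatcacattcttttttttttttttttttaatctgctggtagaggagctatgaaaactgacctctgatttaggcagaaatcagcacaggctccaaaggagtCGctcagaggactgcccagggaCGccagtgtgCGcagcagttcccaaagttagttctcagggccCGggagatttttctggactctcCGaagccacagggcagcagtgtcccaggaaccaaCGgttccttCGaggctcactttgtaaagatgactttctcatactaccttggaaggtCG
Foxi2: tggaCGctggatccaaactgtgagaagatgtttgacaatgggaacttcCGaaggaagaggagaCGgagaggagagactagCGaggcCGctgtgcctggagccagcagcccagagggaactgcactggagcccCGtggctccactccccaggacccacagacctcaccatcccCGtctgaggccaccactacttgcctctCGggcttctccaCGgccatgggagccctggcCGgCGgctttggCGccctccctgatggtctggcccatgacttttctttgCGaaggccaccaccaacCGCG
Foxd2: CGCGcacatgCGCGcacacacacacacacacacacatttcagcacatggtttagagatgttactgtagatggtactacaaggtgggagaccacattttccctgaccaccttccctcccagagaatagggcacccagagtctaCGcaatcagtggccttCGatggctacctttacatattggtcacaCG
Foxj2: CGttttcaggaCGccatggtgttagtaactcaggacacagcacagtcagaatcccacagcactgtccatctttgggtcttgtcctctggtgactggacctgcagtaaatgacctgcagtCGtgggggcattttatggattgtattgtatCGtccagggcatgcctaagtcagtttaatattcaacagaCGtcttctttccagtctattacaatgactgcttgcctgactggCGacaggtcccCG
Foxp1, 319408 bp after the start site: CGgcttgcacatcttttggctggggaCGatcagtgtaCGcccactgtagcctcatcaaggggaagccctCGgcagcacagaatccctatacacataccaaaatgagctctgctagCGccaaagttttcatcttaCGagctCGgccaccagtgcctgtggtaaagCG
Foxp1, 508584 bp after the start site: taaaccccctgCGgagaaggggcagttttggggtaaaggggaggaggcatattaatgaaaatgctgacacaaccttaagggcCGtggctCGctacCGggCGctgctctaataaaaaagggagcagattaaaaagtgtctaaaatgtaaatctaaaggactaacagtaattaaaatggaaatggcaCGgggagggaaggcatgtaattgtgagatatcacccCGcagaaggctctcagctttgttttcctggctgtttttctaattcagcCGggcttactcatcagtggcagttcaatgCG
Foxn4: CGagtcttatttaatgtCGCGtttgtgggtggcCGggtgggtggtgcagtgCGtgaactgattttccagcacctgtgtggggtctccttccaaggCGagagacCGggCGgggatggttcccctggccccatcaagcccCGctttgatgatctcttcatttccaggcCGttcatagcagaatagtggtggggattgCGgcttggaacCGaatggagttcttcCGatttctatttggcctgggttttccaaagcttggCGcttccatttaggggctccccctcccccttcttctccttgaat
The Foxc1 stretch holds 10 CpGs and read 65.5% in KO against 28.8% in WT at 30 ppm, and 73.4% against 34.6% at 3 ppm. The Foxi2 stretch holds 15 CpGs, of which 14 were used, and read 58.5% against 22.1% at 30 ppm and 66.0% against 16.5% at 3 ppm. In both, each KO library lay above each WT library without overlap of the 95% intervals, whereas the 2 Foxp1 stretches were far apart at 30 ppm only, as described below.

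Forkhead start sites lay in less methylated DNA than the start sites of most genes. Averaged over 500 bp bins, forkhead genes read 12.6% to 14.1% in the 4 libraries in the bin just before the start site, against 32.6% to 37.4% over all genes, and in the bin centred at −4750 bp they read 58.8% to 63.0%, against 79.6% to 82.3%.

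**Figure D1:**
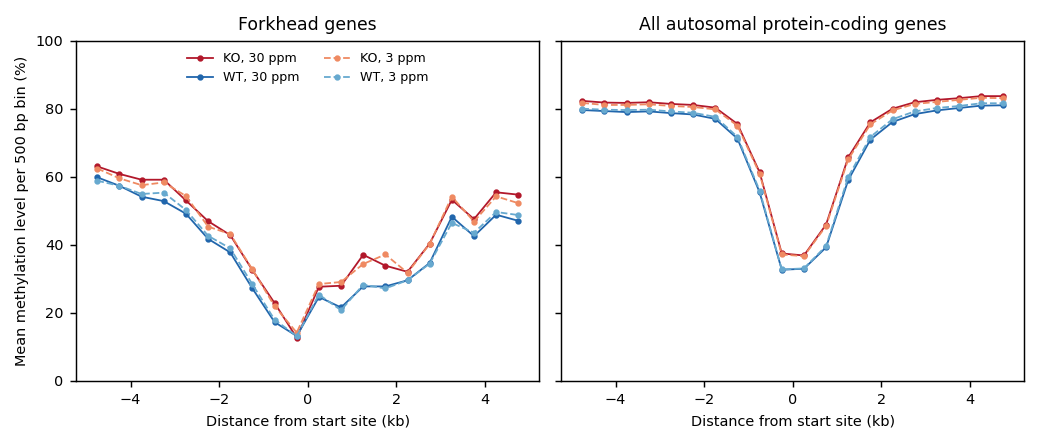
Mean methylation level (%) in 500 bp bins within 5 kb of the start site, for forkhead genes (left) and all autosomal protein-coding genes (right), with 1 line per library. Forkhead genes lie below all genes in every bin, and KO lies above WT of the same diet in every bin of both panels except the bin just before forkhead start sites at 30 ppm (12.6% against 13.1%).

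The start window, which reaches 1 kb to either side, was under 10% methylated in the WT library at 3 ppm in 25 of 39 forkhead genes (64.1%), against 3519 of 19924 genes (17.7%). The median forkhead start window read 7.21% in KO against 4.51% in WT at 30 ppm, and 8.19% against 6.02% at 3 ppm, while the median over all genes was 46.2%, 37.5%, 46% and 37.3% in the same order. Coverage was thin in this DNA: the start windows held a median of 133 CpGs in the reference, against 64 over all genes, of which a median of 18% met the read minimum. Foxf1 and Foxf2 had 2 such CpGs each and were not tested. Foxe3 is 867 bp long and lies within its start window, so it had no gene body to test. The windows are set at the outermost annotated start site, which for Foxp1, Foxn3 and Foxj3 lies 256206, 113508 and 2657 bp from that of the principal transcript. The regions of Foxa3, Foxh1, Foxj3, Foxk1, Foxm1 and Foxq1, among others, also hold start sites of other genes.

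A region was called when Fisher's exact test gave an adjusted p under 0.05 (Benjamini-Hochberg over all genes, per class of region) and the levels differed by at least 10 points. KO was called higher than WT in the start window of 2 of 39 forkhead genes at 30 ppm (15.4% of all genes) and of 5 at 3 ppm (16.6%). The gene body was called in 2 of 40 at 30 ppm (3.07%) and 5 at 3 ppm (2.72%). The upstream flank, from 5 kb to 1 kb before the start site, was called in 5 of 41 (4.80%) and 3 of 41 (3.45%), and the downstream flank, 5 kb after the gene, in 4 of 41 (4.43%) and 5 of 41 (3.85%). At both diets the count was 2 start windows (Foxn4 and Foxq1; 8.01% of all genes), 2 bodies (Foxi2 and Foxo6; 1.40%), 2 upstream flanks (Foxd1 and Foxe1; 1.44%) and 4 downstream flanks (Foxc1, Foxe1, Foxo6 and Foxq1; 1.77%). Start windows were then sorted by the level of the WT library of the other diet. Of those under 10% methylated, 1 of 25 was called at each diet (7.33% and 7.17% of all genes in this class), and of those at 10% to 80%, 1 of 11 was called at 30 ppm and 4 of 10 at 3 ppm (22.9% and 24.9%). Of bodies under 10%, 0 of 15 were called at 30 ppm and 1 of 15 at 3 ppm (9.16% and 10.2%). Of bodies at 10% to 80%, 2 of 10 and 4 of 10 were called (11.6% and 9.79%). Of those at 80% or more, 0 of 15 were called at each diet (0.353% and 0.146%). With a minimum of 10 reads 23 forkhead start windows could be tested, and 4 were called at 30 ppm (13.8% of all genes) and 1 at 3 ppm (14.4%). Windows called before and no longer tested numbered 1 at 30 ppm and 3 at 3 ppm. No forkhead region was called lower in KO: over all genes the share called lower was 0.331% and 0.381% at start windows (30 and 3 ppm), 0.0461% and 0.0665% in bodies, 0.0543% and 0.163% upstream, and 0.064% and 0.123% downstream. Counted over any of the 4 regions, 9 of 41 forkhead genes were called at 30 ppm (23.8% of all genes), 12 at 3 ppm (22.7%), 7 at both diets (11.3%) and 14 at either (33.9%).

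Most differences had the same sign in forkhead genes, as in all genes. The KO level was above WT in 35 of 40 forkhead bodies at 30 ppm (85.6% of all genes) and in 34 at 3 ppm (66.9%), with median differences of 2.55 and 2.18 points, against 1.86 and 0.716 over all genes. At start windows 28 and 30 of 39 lay above 0 (77.3% and 75% of all genes), with medians of 1.40 and 1.10 points against 3.93 and 3.31 over all genes. Upstream flanks had medians of 4.21 and 1.59 points (2.27 and 1.03 over all genes), and downstream flanks 4.02 and 2.44 (2.04 and 0.884). These medians include regions that did not pass the test, and the genome-wide difference between the libraries lies in both columns.

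**Figure D2:**
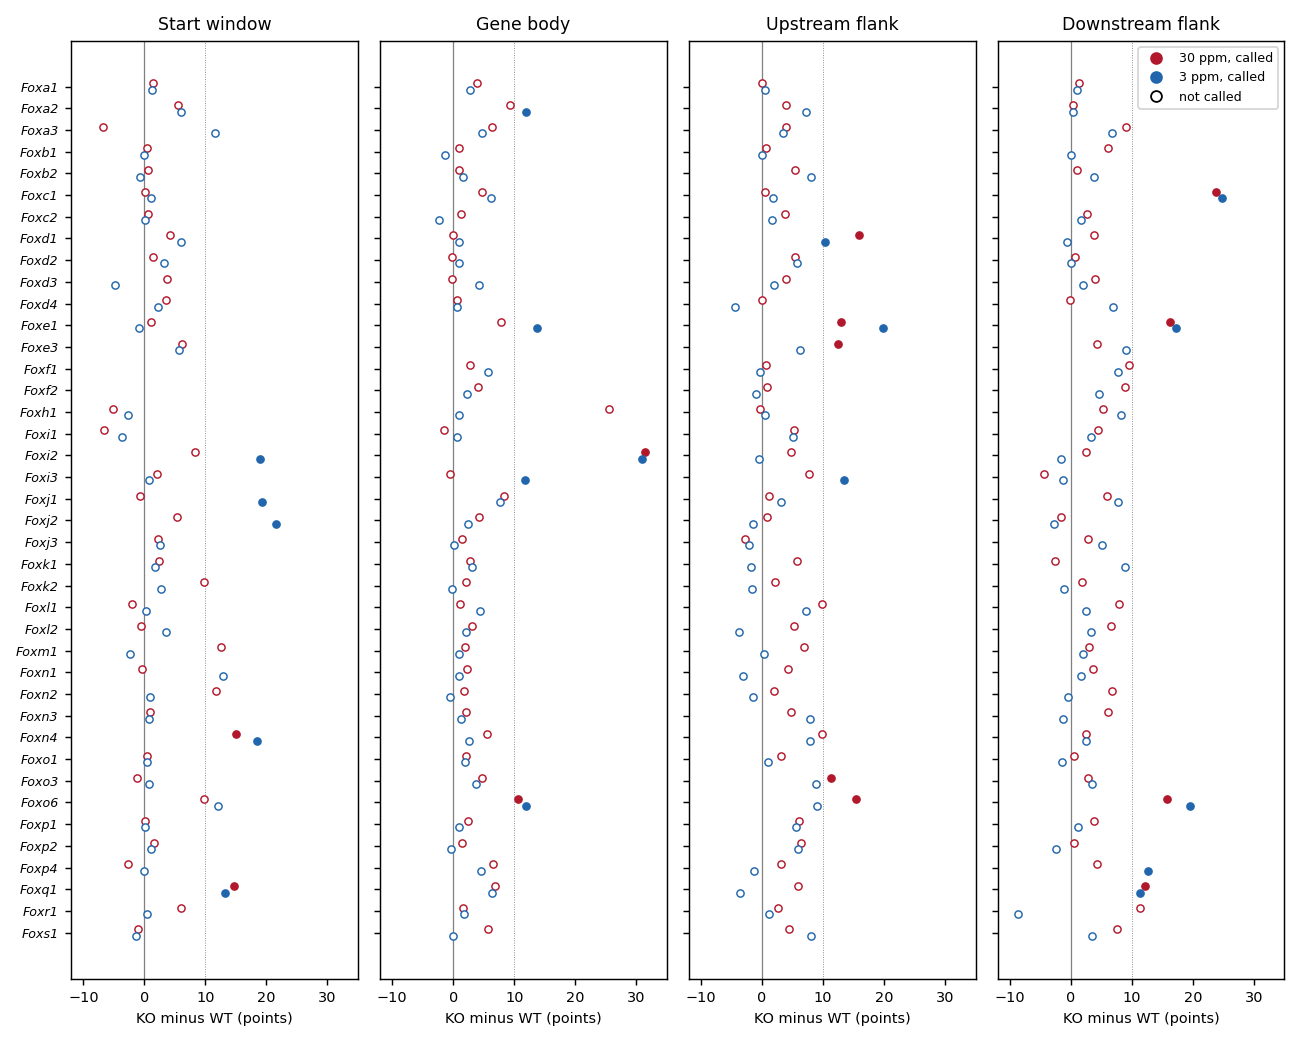
KO minus WT methylation (percentage points) of 40 of the 41 forkhead genes in the start window, gene body, upstream flank and downstream flank, at 30 ppm (red) and 3 ppm (blue), with called regions filled. The dotted line marks the 10 point minimum, and all filled points lie to its right.

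Each forkhead gene was put in 1 of 5 groups by its main known role, and Foxd1 and Foxo6, which also act in the brain, stand in other groups than the neural one. Of the 11 genes in the neural group, 1 was called at 30 ppm, 4 at 3 ppm and 1 at both diets (23.8%, 22.7% and 11.3% of all genes). The 1 was Foxn4 (chr5:114254164-114273807), which directs the choice of interneuron type in spinal cord and retina. Its start window (19 CpGs) read 24.0% in KO (95% interval 17.8 to 31.5) and 8.97% in WT (5.42 to 14.5) at 30 ppm, and 26.4% (21.3 to 32.1) and 8% (4.98 to 12.6) at 3 ppm. Both KO libraries lay above both WT libraries, by 15 points (Fisher adjusted p = 0.00471) and 18.4 points (adjusted p = 7.25e-06). The printed stretch, centred 389 bp into the gene, read 10.3%, 6.12%, 25% and 2.04% in KO and WT at 30 ppm and KO and WT at 3 ppm. Just upstream, the 1 kb tile centred at −694 bp read 28.2% against 1.79% at 30 ppm and 21.9% against 3.85% at 3 ppm. With no minimum on reads the 30 ppm difference of the start window was 8.22 points, under the 10 point minimum, and with a minimum of 10 reads fewer than 3 CpGs were left.

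The other neural genes called were Foxa2, Foxj1 and Foxp4, all at 3 ppm. Foxa2 (chr2:148042877-148046969), a floor plate factor, read 16.7% in KO and 7.32% in WT in its body at 30 ppm and 18.0% and 6.07% at 3 ppm. Its difference of 9.35 points at 30 ppm fell just short of the size minimum (adjusted p = 0.00435) and that of 12.0 points at 3 ppm was called (adjusted p = 6.24e-05). The latter was 4.63 points with no read minimum, 4.68 with equal weight per CpG and 9.45 over the whole gene, each too small for a call, and 36.1 points with a minimum of 10 reads. Foxj1, the regulator of motile cilia, read 24.4% in KO and 25.2% in WT at its start window at 30 ppm and 35.2% and 15.9% at 3 ppm, so the 95% intervals overlapped at 30 ppm (19 to 30.7, 20.8 to 30.1) and not at 3 ppm (30.9 to 39.7, 12.1 to 20.7). The difference between the diets in KO against WT passed a Wald test for Foxj1 (adjusted p = 0.019). It did not pass after each library was thinned to the read total of the shallowest one (adjusted p = 0.148). Its difference of 19.2 points at 3 ppm was 9.81 with equal weight per CpG and 8.78 in a window of 2.5 kb, both without a call. Of its 14 tiles of 1 kb, 2 were called higher in KO at 30 ppm and 1 other at 3 ppm (1.13% and 1.10% of all tiles). The tile centred at 898 bp, which overlaps the start window, read 25.6% against 0% at 30 ppm and was called. At 3 ppm it read 24.3% against 15.5%, without a call. The tile at 5898 bp read 83.6% against 46.5% at 30 ppm (called) and 73.0% against 49.1% at 3 ppm. Foxp4, expressed in neural progenitors, read 81.2% and 76.9% downstream at 30 ppm and 84.9% and 72.3% at 3 ppm, a difference of 12.6 points at 3 ppm (adjusted p = 3.49e-06) that was 2.24 points with a minimum of 10 reads (adjusted p = 0.852).

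Foxa1, a partner of Foxa2 in the ventral midbrain, read 8.36% and 4.49% in its body at 30 ppm and 7.63% and 4.86% at 3 ppm. Foxb1, a factor of the mammillary region, read under 4% in all 4 libraries in its start window, body and upstream flank. Its upstream flank, for example, read 1.93%, 1.26%, 1.67% and 1.71%, a range in which KO and WT overlapped. Foxd3, a neural crest factor, read 7.16% and 3.15% upstream at 30 ppm (adjusted p = 0.00163) and 4.80% and 2.84% at 3 ppm (adjusted p = 0.0855). Foxb2, a close relative of Foxb1, read 14.6% and 9.12% upstream at 30 ppm and 15.1% and 6.97% at 3 ppm, with both KO libraries above both WT libraries and no difference reaching 10 points.

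The long genes Foxp1 and Foxp2, factors of motor neurons, striatum and cortex, had highly methylated bodies. Foxp1 read 85.6% in KO against 83.3% in WT at 30 ppm, and 85.4% against 84.5% at 3 ppm over 6403 CpGs. Foxp2 read 85.5% against 84.0% at 30 ppm and 84.8% against 85.1% at 3 ppm over 2792 CpGs. The KO minus WT differences of 2.37 and 0.907 points in Foxp1 and 1.52 and −0.335 points in Foxp2 were not the same at both diets (Wald adjusted p = 4.92e-09 and 7.33e-09), beside genome-wide differences of 2.03 and 0.688 points. Foxp4 read 74.9% and 68.3% in its body at 30 ppm and 74.7% and 70.2% at 3 ppm. Over all genes, 15.1% of bodies passed the same Wald test, and 6 of 40 forkhead bodies did, those of Foxi3, Foxk2, Foxn2, Foxn3, Foxp1 and Foxp2. The test passed in 1 of 39 start windows (1.35% of all genes), in 0 of 41 upstream flanks (0.696%) and in 1 of 41 downstream flanks, that of Foxd4 (1.13%).

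Among the 8 genes of mesoderm and mesenchyme, 2 were called, Foxc1 and Foxd1, both at both diets (23.8% of all genes at 30 ppm, 22.7% at 3 ppm and 11.3% at both). Foxc1 (chr13:31806633-31812476), a factor of the meninges and the eye, read 73.8% in KO (70.4 to 77.0) and 50.1% in WT (46.3 to 53.8) in its downstream flank at 30 ppm, and 71% (68.1 to 73.7) and 46.3% (42.9 to 49.8) at 3 ppm. The differences of 23.8 and 24.7 points (adjusted p = 2.03e-16 and 1.86e-23) were the largest of any forkhead flank. Its start window was unmethylated in all 4 libraries, at 0.573% to 1.73%, and its body read 12.6% against 7.86% at 30 ppm and 12.1% against 5.89% at 3 ppm, so the called part lies beyond the end of the gene. Foxd1 (chr13:98354242-98359305), a factor of the ventral diencephalon and of kidney stroma, read 52.7% (49.0 to 56.2) and 36.7% (33.7 to 39.9) upstream at 30 ppm, and 50.4% (47.8 to 53.1) and 40.1% (37.1 to 43.1) at 3 ppm. Its differences were 15.9 points (adjusted p = 2.61e-08) and 10.4 points (adjusted p = 3.75e-05), and the latter was 9.91 points with a minimum of 10 reads.

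Other genes of the group were under 10 points apart in each region. Foxf1, a factor of splanchnic mesoderm, read 15.9% and 6.39% downstream at 30 ppm and 14.4% and 6.71% at 3 ppm, so that both KO libraries lay above both WT libraries by less than 10 points (9.54 and 7.69; adjusted p = 1.57e-06 and 6.31e-06). Foxl1, a factor of the gut mesenchyme, read 19.9% and 10.2% upstream at 30 ppm (9.79 points, adjusted p = 0.00299) and 21.8% and 14.6% at 3 ppm (adjusted p = 0.0537). The flanks of Foxc2 and Foxl1 share 956 bp on chromosome 8, and a 1 kb tile between the genes was called at both diets for each, at 53.3% in KO against 24.3% in WT at 30 ppm, and 57.6% against 27.9% at 3 ppm. Foxc2 itself read 2.84%, 1.60%, 1.47% and 3.82% in its body, with KO and WT overlapping, and Foxs1 read 74.3% to 82.1% in its start window.

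The 9 genes of endoderm, placodes and surface epithelia, whose proteins act mainly outside the brain, held 4 called genes at 30 ppm (23.8% of all genes), 4 at 3 ppm (22.7%) and 3 at both (11.3%). Foxi2 (chr7:135410308-135413622), a factor of cranial ectoderm, had the widest difference in a gene body: 73.6% in KO (67 to 79.3) and 42.1% in WT (36.1 to 48.4) at 30 ppm, and 74.7% (70.0 to 78.9) and 43.9% (38.1 to 49.8) at 3 ppm over 21 CpGs. KO was higher by 31.5 points (adjusted p = 5.06e-10) and 30.9 points (adjusted p = 1.95e-13). With a minimum of 10 reads the differences over the CpGs left were 15.9 points (adjusted p = 0.0215) and 3.92 points (adjusted p = 0.72), so the 3 ppm call rests on CpGs with fewer reads. The Foxi2 start window read 35.4% against 27.0% at 30 ppm and 39.7% against 20.7% at 3 ppm, where it was called (adjusted p = 9.79e-05).

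Foxe1 (chr4:46343609-46346412), the thyroid and palate factor, was called in both flanks at both diets. Upstream it read 26.4% against 13.3% at 30 ppm and 31.2% against 11.2% at 3 ppm, and downstream 37.3% against 21.0% at 30 ppm and 37.0% against 19.8% at 3 ppm. The body was called at 3 ppm (25.5% against 11.8%, adjusted p = 2.04e-05) and differed by 7.77 points at 30 ppm (adjusted p = 0.0427), while the start window read 0% to 2.13% in all 4 libraries. With a minimum of 10 reads the upstream difference at 30 ppm was 10.2 points (adjusted p = 0.523). Foxq1 (chr13:31556134-31560976), a factor of gut and hair epithelium, was called at the start window (60.2% and 45.5% at 30 ppm, 57.7% and 44.5% at 3 ppm), where a window of 2.5 kb gave 9.73 and 7.43 points and no call, and downstream (71.7% and 59.6%, 70.5% and 59.1%). An antisense gene, A530084C06Rik, has its start site in the flanks of Foxq1 and overlaps its exon, so some of these CpGs belong to both genes.

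The lens factor Foxe3 was called upstream at 30 ppm only, at 80.6% and 68.2% (adjusted p = 0.0232, or 0.0935 where CpGs needed 10 reads), against 75.4% and 69.2% at 3 ppm. Foxi3, a placode factor, was called upstream and in its body at 3 ppm only. With equal weight per CpG these differences of 13.5 and 11.8 points were 8.96 and 7.62, and with a minimum of 10 reads the upstream one was 9.07 (adjusted p = 0.0514), all without a call. Its body read 73.1% in KO against 73.6% in WT at 30 ppm, and 76.5% against 64.7% at 3 ppm, and the diets gave different values of KO against WT (Wald adjusted p = 0.0133). The WT library at 3 ppm was the low one there. Foxi1, an inner ear and kidney factor, read 87.7%, 94.3%, 87.8% and 91.6% at its start window in the 4 libraries. Foxn1, the thymic epithelium factor, read 81.0%, 81.4%, 94.1% and 81.2% there, Foxa3, a liver factor, 36.1%, 42.9%, 40.8% and 29.3%, and Foxl2, an ovary factor, 4.59% to 8.19%. None of these comparisons passed the test.

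Of 10 broadly expressed genes, Foxo6 was called at both diets and Foxo3 and Foxj2 at 1 diet each, 2 genes at each diet (23.8% and 22.7% of all genes). Foxo6 (chr4:120267079-120287349), a Foxo protein of the brain, read 75.8% (73.3 to 78.1) in KO and 65.2% (62.5 to 67.7) in WT in its body at 30 ppm and 76.0% (74.1 to 77.8) and 64.0% (61.6 to 66.4) at 3 ppm. The differences were 10.6 points (adjusted p = 4.95e-08) and 12.0 points (adjusted p = 5.52e-13), and they were 7.16 and 7.60 points with a minimum of 10 reads. At 30 ppm the body was also under 10 points with no read minimum (7.09) and over the whole gene (9.44). Its downstream flank read 73.0% against 57.1% at 30 ppm and 74.3% against 54.8% at 3 ppm, and its upstream flank 86.0% and 70.6% at 30 ppm, where it was called (adjusted p = 2.4e-07), and 81.4% and 72.4% at 3 ppm. Foxj2 read 21.2% and 15.8% at its start window at 30 ppm and 37.1% and 15.5% at 3 ppm (adjusted p = 0.000451), on 8 CpGs. The call was lost with a minimum of 10 reads (20.7 points, adjusted p = 0.0565) and in a window of 2.5 kb (8.05 points).

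The remaining broadly expressed genes were not called. Foxk2, a metabolic regulator, came closest at its start window at 30 ppm, with 23.9% and 14.1%, a difference of 9.80 points (adjusted p = 0.0419), against 19.5% and 16.8% at 3 ppm. The body of Foxo1, a target of insulin signalling, read 87.4%, 85.4%, 87.8% and 85.9% (KO and WT at 30 ppm, KO and WT at 3 ppm), and that of Foxk1 87.3%, 84.6%, 87.2% and 84.2%. Both KO libraries lay above both WT libraries in these, by 1.90 to 3.05 points. Foxm1, a cell cycle regulator, read 30.9%, 18.3%, 16.6% and 18.8% at its start window (adjusted p = 0.146 at 30 ppm). The bodies of Foxj3, Foxn2 and Foxn3 read 83.5% to 90.3% in all libraries. The 3 genes of the early embryo and germ line held 0 called genes (23.8% of all genes at 30 ppm and 22.7% at 3 ppm), too few to compare. Foxh1, the partner of SMAD proteins in Nodal signalling, read 44.9%, 50.0%, 53.9% and 56.7% at its start window, Foxd4 1.69% to 5.39% and Foxr1 74.7% to 82.0%.

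Foxo3, a Foxo protein of neural stem cells, lies in a block of chromosome 10 with many CpGs at 90% or more in both KO and at 10% or less in both WT libraries, a pattern that a base difference between strains can also give. Such CpGs numbered 326 on the autosomes, with 118 of them from 42 to 43 Mb of chromosome 10, and the reverse pattern was seen at 1 CpG. Of the forkhead genes and their flanks only Foxo3 held such CpGs, 14 of them. Its body read 89.8% against 85.1% at 30 ppm and 89.7% against 85.9% at 3 ppm, and without these CpGs the differences of 4.70 and 3.80 points were 3.75 and 2.83. Its upstream flank, called at 30 ppm (70.7% and 59.4%, adjusted p = 0.00454) and 8.87 points apart at 3 ppm (adjusted p = 0.0127), held none. Its difference of 11.3 points at 30 ppm was 4.96 with no read minimum (adjusted p = 0.259) and 9.23 with equal weight per CpG, both without a call. Whether strain sequence plays a part in the remaining differences at Foxo3 was not tested.

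The called flanks were of intermediate methylation. Sorted in the same way, 4 of 21 downstream flanks at 10% to 80% were called at 30 ppm (12.4% of all genes in this class) and 5 of 22 at 3 ppm (10.8%). Upstream 5 of 23 were called at 30 ppm (870 of all 7544 genes in this class) and 3 of 25 at 3 ppm (8.37%). Outside this class no forkhead flank was called. Under 10% there were 8 upstream flanks at each diet (5.39% of all genes in this class called at 30 ppm and 3.30% at 3 ppm). Downstream there were 10 and 8 (5.33% and 4.00%), too few to compare. Of all genes with flanks at 80% or more 0.152% to 0.735% were called, and such levels leave little room for the 10 point minimum. In 1 kb tiles over the forkhead genes and their 5 kb flanks, 66 of 2439 tiles were called higher in KO at 30 ppm (2.71%, against 1.13% of all 1863069 autosomal tiles). At 3 ppm 67 were called (2.75%, against 1.10%), and 22 at both diets (0.902%, against 0.367%). With a minimum of 10 reads these were 33 of 1993 tiles at 30 ppm (1.66%, against 0.681%) and 27 at 3 ppm (1.35%, against 0.561%). After thinning to the read total of the shallowest library they were 53 of 2407 (2.20%, against 1.01%) and 32 (1.33%, against 0.554%). Without CpGs of the pattern described at Foxo3, in either direction, they were 65 of 2439 (2.67%, against 1.12%) and 62 (2.54%, against 1.09%). The long genes Foxp1, Foxp2 and Foxn3 held 598, 445 and 374 of the 2439 tiles. Their tiles called higher in KO numbered 13, 4 and 7 at 30 ppm and 5, 3 and 5 at 3 ppm. Foxo3, in the chromosome 10 block described above, held 103 tiles. Of these 7 were called higher in KO at 30 ppm, 10 at 3 ppm and 3 at both diets. Over all forkhead tiles, 1 was called lower at 30 ppm (0.0487% of all tiles) and 4 at 3 ppm (0.114%). Among tiles, those at 10% to 80% were called higher at 9.52% (30 ppm) and 8.78% (3 ppm) in forkhead loci, against 3.86% and 3.67% over all tiles. Tiles under 10% were called at 3.03% and 3.43%, against 5.42% and 6.40%, and tiles at 80% or more at 0.358% and 0.487%, against 0.282% and 0.197%. The tiles under 10% were 8.12% of forkhead tiles and 0.983% of all tiles. Tiles of all genomic regions stand in the comparison, not only those near genes.

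The widest of the 22 tiles lay in Foxi2, centred 1193 bp after the start site, at 58.4% in KO against 22.8% in WT at 30 ppm, and 67.6% against 17.5% at 3 ppm. At Foxc1 a tile 8868 bp after the start site read 59.7% against 27.4% at 30 ppm and 62.9% against 28.7% at 3 ppm. Both KO values of each tile lay far above both WT values. Foxf1 held such a tile 8115 bp after its start site (41.2% against 17.9%, 35.1% against 18.2%), Foxb2 at −3696 bp (33.3% against 13.9%, 37.3% against 10.9%), and Foxd1 at −1741 bp (21.7% against 8.73%, 32.2% against 13.7%). In Foxb2 and Foxf1, a single tile was called at both diets although no whole region was.

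The unmethylated stretch around the start site was measured in each library as the run of 500 bp bins under 20%, ended by the first bin at 20% or more and carried over up to 2 kb of bins with too few CpGs. Of 39 forkhead genes with enough CpGs near the start site, 32 had such a stretch in at least 1 library, and its median width in the WT libraries was 4000 bp at 30 ppm and 4500 bp at 3 ppm, against 1500 bp over all genes at each diet. In 8 of 32 forkhead genes (25%) it spanned 10 kb or more in WT at 30 ppm, against 162 of 9360 genes (1.73%). At Foxd1 the stretch was 18000 bp in both WT and 10000 bp in both KO libraries, and at Foxa2 5000 and 3000 bp. Each end of these stretches is set by 1 bin. At Foxd1 the KO stretch ended downstream at a bin of 6 CpGs, centred at 8750 bp, that read 22.3% against 10.8% at 30 ppm and 21.4% against 14.6% at 3 ppm, and the KO bins from 9750 to 13250 bp read 0% to 8.16%. At Foxa2 it ended at a bin of 5 CpGs at −750 bp (32.1% against 8.62%, 29.4% against 18.1%), and the KO bins from −2250 to −1250 bp read 0% to 9.17%. At Foxd1 the KO stretch also ended sooner upstream, at a bin of 16 CpGs centred at −1750 bp (25.1% against 8.91%, 35.9% against 15.6%).

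**Figure D3:**
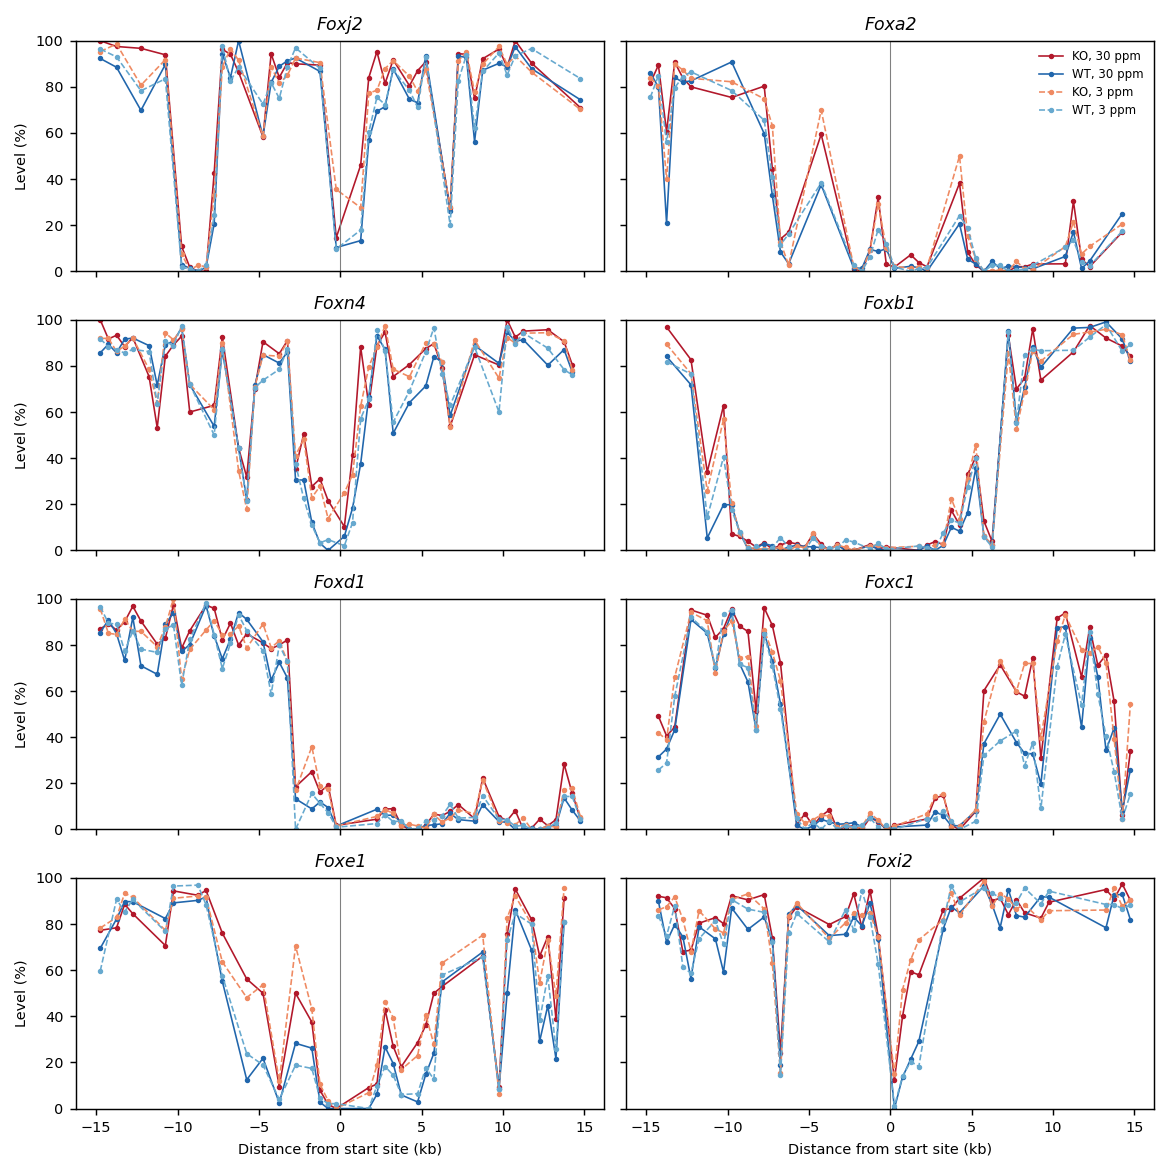
Methylation level (%) in 500 bp bins with at least 3 CpGs, within 15 kb of the start site (vertical line) of 8 forkhead genes, with 1 line per library. KO lines (red and orange) rise above WT lines (blue) at the edges of the low stretches, as at Foxn4 and Foxi2, and in the downstream part of Foxc1.

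In all, the stretch was narrower in KO in 17 of 32 forkhead genes at 30 ppm (41.6% of all genes) and in 15 at 3 ppm (38.2%). It was equal in 15 at each diet, and wider in 0 at 30 ppm (2.36% of all genes) and in 2 at 3 ppm (2.2%). It was narrower at both diets in 11 of 32 (26.9% of all genes) and wider at both in 0 (0.221%). They included Foxa2, Foxb1, Foxb2, Foxd1, Foxi2, Foxj1, Foxj2, Foxn3, Foxn4 and Foxo1. At Foxn4 the width was 500 bp in KO and 3000 bp in WT at 30 ppm and 0 and 3000 bp at 3 ppm, and at Foxj2 500 and 2000 bp and 0 and 2000 bp. The widths of Foxc1 (11500 bp) and Foxc2 (10000 bp) were the same in all 4 libraries. Those of Foxe1 (4000, 4000, 4000 and 11000 bp), Foxd2 (10500, 11000, 10500 and 4500 bp) and Foxd3 (8000, 13000, 13000 and 13000 bp) differed mainly in 1 library, KO and WT in order at 30 and then 3 ppm. The widths were not tested, since each is 1 value per library.

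**Figure D4:**
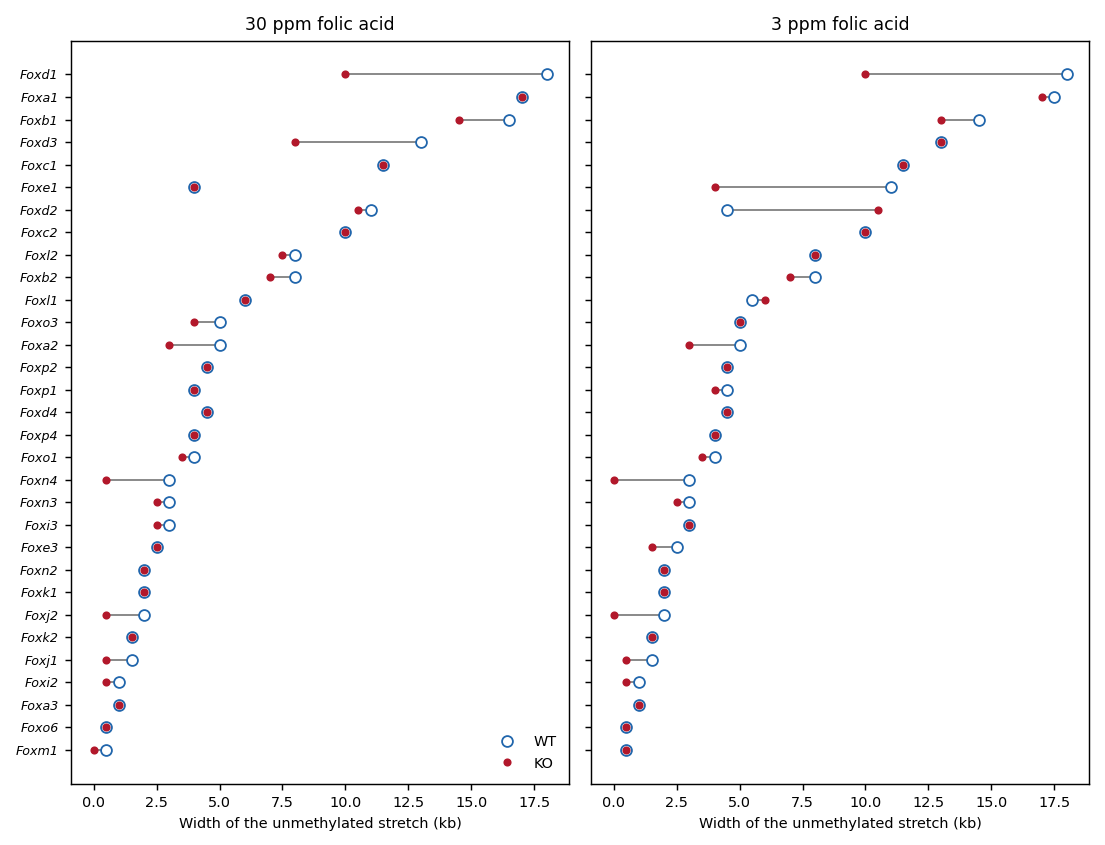
Width (kb) of the unmethylated stretch around the start site in WT (open blue) and KO (red) libraries, for 31 of the 32 forkhead genes with a stretch in at least 1 library, at 30 ppm (left) and 3 ppm (right). At Foxd1 and Foxa2 the KO stretch is narrower than in WT at both diets, while many genes have equal widths. At Foxa2, and downstream at Foxd1, a bin of 5 or 6 CpGs ends the KO stretch.

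The authors' own DMRs, called in each pair of libraries with DSS, were given as positions only. DMRs higher in KO overlapped 9 of 41 forkhead genes or their 5 kb flanks at 30 ppm (13.7% of all genes), 7 at 3 ppm (14.2%), 3 at both diets (8.52%: Foxc1, Foxi2 and Foxp4) and 13 at either (19.4%). None of those higher in KO lay in a forkhead start window (2.91% of all genes at 30 ppm and 3.55% at 3 ppm), and none was lower in KO (0.125% and 0.0865% of all genes). For the pair of libraries in which a DMR was called, its level is a description. The other diet's pair was tested, with adjustment over all DMRs of the list. The share of all listed DMRs that passed this test is not given. Passing or failing it is therefore not read as particular to forkhead genes.

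At Foxc1 the 30 ppm DMR (chr13:31815184-31815552, in the downstream flank, 12 CpGs) read 74.3% in KO against 32.8% in WT at 30 ppm, and 72.0% against 37.6% at 3 ppm, and the pair at 3 ppm differed (Fisher adjusted p = 2.15e-10). At Foxi2 the 30 ppm DMR (chr7:135411693-135412132) read 61.2% against 21.8% at 30 ppm and 65.0% against 17.1% at 3 ppm (adjusted p = 3.99e-15), and each of its 12 CpGs was higher in KO than in WT at both diets. Both DMRs had the same order of libraries at 3 ppm. The authors list both loci at both diets, so the pair at 3 ppm was also used to list them. At these 2 genes the values and p-values of the other pair are therefore a description and not a separate test. For Foxo6 the 3 ppm DMR across the end of the last exon (chr4:120266967-120267311) read 65.0% and 26.5% at 3 ppm and 71.3% and 42.4% at 30 ppm (adjusted p = 0.000114). For Foxd2, a factor of paraxial mesoderm, the printed upstream stretch is the whole 3 ppm DMR and read 57.9% and 21.1% at 3 ppm and 53.0% and 32.3% at 30 ppm (adjusted p = 0.017). The 3 ppm DMRs of Foxc1 (chr13:31814840-31816346) and Foxi2 (chr7:135411452-135412132) hold the 30 ppm ones. In the pair at 30 ppm, which also served to list these loci, Foxc1 read 59.4% against 29.4% (Fisher adjusted p = 1.04e-11). Foxi2 read 58.8% against 23.6% there (adjusted p = 1.09e-07).

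The scored DMRs of Foxp1, Foxj2, Foxo3 and Foxh1 and the second of Foxo6 did not pass the test in the pair of the other diet. At Foxp1 the intronic DMR chr6:99013988-99014344 (11 CpGs) read 56.6% in KO (47.1 to 65.6) and 13.5% in WT (8.92 to 20) at 30 ppm, and 22.6% (17.3 to 28.9) and 18.7% (13.5 to 25.3) at 3 ppm (adjusted p = 0.466). The KO library at 30 ppm thus stood alone, and the authors' diet comparison in KO lists part of the same interval (62.5% at 30 ppm and 22.0% at 3 ppm). The other Foxp1 DMR, chr6:99203231-99203395, read 69.2% against 25% at 30 ppm and 36.9% against 20.8% at 3 ppm (adjusted p = 0.0687), on 4 CpGs. In the intron of Foxj2 the DMR read 60% against 15.2% at 30 ppm and 31.6% against 24.3% at 3 ppm (adjusted p = 0.417). The DMR in Foxo3 (82.6% and 48.6% at 30 ppm, 74.8% and 70.8% at 3 ppm) set the WT library at 30 ppm apart as the low one (adjusted p = 0.439). That near Foxh1 read 45.5% against 31.8% at 30 ppm and 57.3% against 25% at 3 ppm, and the second of Foxo6 40.6% and 26.8% and 53.4% and 22.0% (adjusted p = 0.152 and 0.116). Listed DMRs at Foxe1, Foxn1, Foxn2, Foxn4 and Foxp4 and another in Foxp1 had fewer than 3 CpGs with the read minimum and were not scored.

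**Figure D5:**
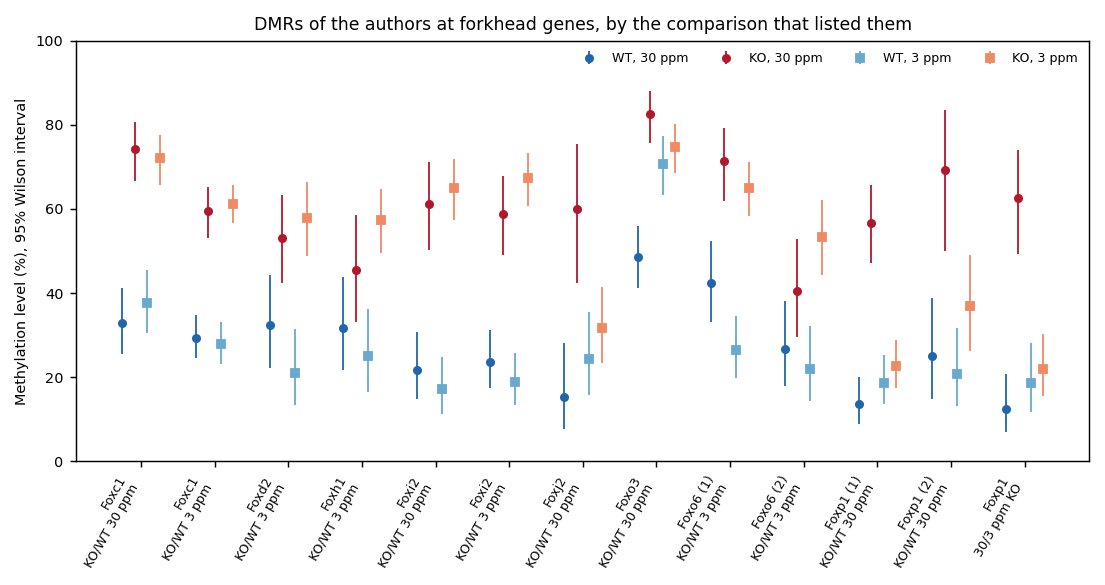
Methylation level (%) with 95% Wilson intervals in the 4 libraries for each DMR of the authors at a forkhead gene with at least 3 CpGs used, labelled with the comparison that listed it. At Foxc1 and Foxi2 both KO libraries lie above both WT libraries, and at the first Foxp1 DMR the KO library at 30 ppm lies at 56.6% above the other 3 libraries.

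Between the diets no forkhead region was called in either genotype. The share of all genes called either way was 1.20% in KO and 0.793% in WT at start windows, 0.138% and 0.307% in bodies, 0.227% and 0.321% upstream, and 0.236% and 0.281% downstream. The adjusted p was under 0.05, at less than 10 points, for the Foxp2 body and the Foxl2 downstream flank in KO (0.706 and 6.00 points higher at 30 ppm) and for 4 bodies in WT. Of these the Foxi3 body was 8.88 points higher at 30 ppm, and those of Foxj3, Foxp1 and Foxp2 fell by 1.60, 1.20 and 1.15 points. The share of all genes that passed by adjusted p alone is not given. Over all genes the median body at 30 ppm minus 3 ppm stood at 0.527 points in KO and −0.596 points in WT. Among tiles, 2 of 2439 were called in KO (0.0683% of all tiles) and 1 in WT (0.047%). They were a tile 343081 bp into Foxn3 (29.2% in KO at 30 ppm and 12.4% at 3 ppm), a tile 551220 bp into Foxp1 (75.1% and 87.8%) and, in WT, a tile 356152 bp into Foxp2 (71.3% and 52.6%). The authors list 1 DMR higher at 30 ppm at a forkhead gene in KO, the Foxp1 interval above (0.423% of all genes), and 1 in WT, in an intron of Foxp4, which had no CpG with the read minimum (0.298%).

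A limma fit of genotype with diet in the model, on log2((methylated + 1)/(unmethylated + 1)), is the only test here in which differences between embryos enter the error. Its 1 residual degree of freedom, before moderation over all genes, is the difference of KO minus WT between the diets. That residual mixes the spread between embryos with diet dependence and does not measure spread within a group. Genotype stays tied to defect and litter in this fit. By this fit KO was higher at an adjusted p under 0.05 in 12 of 40 forkhead bodies (6.60% of all genes), 3 of 39 start windows (7.42%), 5 of 41 upstream flanks (3.02%) and 4 of 41 downstream flanks (2.33%), and lower in none. The fitted difference between KO and WT is a log2 odds ratio, not a ratio of levels. Its median was 0.42 in forkhead bodies against 0.17 over all genes, and 0.37 against 0.39 at start windows. The bodies included those of Foxa1, Foxa2, Foxb2, Foxc1, Foxe1, Foxf1, Foxf2, Foxi2, Foxl2, Foxo6 and Foxq1. The Foxb2 body held 1 methylated read in each KO library, of 104 and 59, and 0 of 70 and 67 in WT, so its ratio rests on the added count (Fisher adjusted p = 1 and 0.65). For Foxi2 the log2 odds ratio was 1.91 (SE 0.141, limma adjusted p = 0.000656), for Foxa2 1.51 (SE 0.157, adjusted p = 0.0021) and for Foxl2 1.59 (SE 0.17, adjusted p = 0.00234). On this scale a shift from a low level counts as much as one in the middle range: the Foxl2 body, at 4.14% against 1.06% at 30 ppm and 3.4% against 1.29% at 3 ppm, was 3.08 and 2.11 points apart. Bodies under 10% methylated in the WT library at 3 ppm were 15 of 40 in forkhead genes (37.5%), against 1.34% over all genes. The limma counts were not sorted by this level. The start windows higher in KO by limma were those of Foxd4, Foxn4 and Foxo6. The upstream flanks were those of Foxb2, Foxd3, Foxe1, Foxl1 and Foxo6, and the downstream flanks those of Foxc1, Foxe1, Foxf1 and Foxo6. Of the regions called by reads at both diets, limma gave no call at the Foxq1 start window or downstream flank or at the Foxd1 upstream flank.

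Other genes of forkhead pathways were counted from a list of 16 partners and regulators: the Tle co-repressors, Nodal, its inhibitors Lefty1 and Lefty2, Smad3, and the insulin and AKT genes that set Foxo activity. KO was called higher in at least 1 region in 9 of 16 at 30 ppm, 6 at 3 ppm and 5 at both (23.8%, 22.7% and 11.3% of all genes). Among 36 homeobox genes of the brain the counts were 12, 8 and 5, and among 39 Hox genes 10, 7 and 5, beside 9, 12 and 7 of the 41 forkhead genes. The median start window in WT at 3 ppm read 1.53% in the homeobox list and 3.04% in the Hox list, against 6.02% in forkhead genes. Differences between these lists were not tested.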

How the data were processed

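Whole genome bisulfite sequencing libraries of 4 embryonic brains, 1 per group, were analysed. As the methods of the study state, reads were trimmed by the authors with Trim Galore 0.6.10, then aligned to GRCm38.p6 and deduplicated with Bismark 0.23.1, and each CpG's strands were combined. The deposited tables hold, per CpG, the count of all reads and the methylated fraction, and the fewest reads at a listed CpG are 2 in every library. The methylated count was recovered as fraction times count. Positions count from 0 in the tables and are given here from 1. The authors' DMR lists, made with DSS for differences of at least 10 points, were used as positions only; DSS was not run.

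Groups follow the sample labels. CpGs needed 5 reads in each of the 4 libraries and regions 3 such CpGs. Gene positions are from GENCODE vM21. Pairs of libraries were compared with Fisher's exact test (two-sided) on summed reads, adjusted by Benjamini-Hochberg over all autosomal protein-coding genes per region class. Diet dependence was tested by a Wald test of the difference of log odds ratios, each count raised by 0.5. Genotype was also fitted with diet in limma 3.58.1 (R 4.3.3) on log2 ratios of methylated and unmethylated counts plus 1. The test of a DMR in the other diet's pair was added after the data were seen. Python 3.11.15, numpy 2.4.6, scipy 1.17.1 and pandas 2.3.3 were used. Fisher's test, the Wald test and the limma fit were tested on simulated data: of 200 start windows changed by 10, 20 and 30 points among 19924, Fisher's test recovered 18%, 78% and 96% and the Wald test 3.5%, 49% and 85.5%.

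Named genes are those called at both diets, the 3 called genes with the largest difference per comparison and region class, those with a DMR, and genes fixed by name: Foxa1, Foxa2, Foxb1, Foxd1, Foxd3, Foxj1, Foxn4, Foxp1, Foxp2, Foxp4, Foxc1 and Foxo3. Further genes are given as ranges or examples. The values of 1 gene are not reported here, although it stays in the counts and medians. The members, lists and tests were chosen with earlier results of these data known. A read that covers several CpGs was counted at each, and reads carry no molecular identifiers, so p-values and intervals may be too narrow. The alternatives varied the read minimum, the region sizes, the weighting of CpGs, the depth and the scale of the fit. Printed sequences leave out windows that overlap an annotated UTR.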

Additional observations from a re-analysis of the deposited data

Results flagged for a closer look

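For 8 forkhead regions the difference between the KO and WT libraries was not the same at the 2 diets, by the Wald test with adjustment over all genes. They were 1 of 39 start windows (1.35% of all genes), 6 of 40 bodies (15.1%) and 1 of 41 downstream flanks (1.13%), so the count of bodies is at the share of all genes. The Wald test covers counting error only. With 1 embryo per group, diet cannot be told apart from embryo or litter in these regions. In the start window of Foxj1 (adjusted p = 0.019) and the body of Foxi3 (adjusted p = 0.0133), KO was higher at 3 ppm by 19.2 and 11.8 points, while the values at 30 ppm were −0.763 and −0.442 points. The downstream flank of Foxd4 (adjusted p = 0.0452) had the same order of values, with 6.89 points at 3 ppm and −0.204 at 30 ppm. After thinning to the read total of the shallowest library the Wald adjusted p was 0.148 for Foxj1 and 0.116 for Foxd4. A 1 kb tile that overlaps the Foxj1 window was called at 30 ppm only (25.6% in KO against 0% in WT).

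In the other 5, all gene bodies of high methylation, the difference was wider at 30 ppm. They were Foxp1 (adjusted p = 4.92e-09), Foxp2 (adjusted p = 7.33e-09), Foxk2 (adjusted p = 0.00863), Foxn2 (adjusted p = 0.0275) and Foxn3 (adjusted p = 0.0378), with 2.37, 1.52, 2.03, 1.85 and 2.14 points at 30 ppm and 0.907, −0.335, −0.178, −0.531 and 1.31 at 3 ppm. Foxn2 and Foxn3 did not pass after thinning (adjusted p = 0.113 and 0.212) or with a minimum of 10 reads (0.0629 and 0.0881). The mean over all autosomal CpGs was 2.03 points higher in KO at 30 ppm and 0.688 at 3 ppm, and its part in these values was not tested.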

How the results depend on the processing

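No paired analysis was possible because each group has 1 library, so no embryos are matched across groups (the limma fit compares KO with WT within each diet, with 1 residual degree of freedom). For the 31 calls in 21 forkhead regions, 196 alternative values could be computed. Of these 69 equal the reported value, among them 31 of 31 without CpGs at 90% or more in both libraries of 1 genotype and 10% or less in both of the other, and 29 of 31 with the principal transcript's start site, since these settings left those regions as they were. Of the other 127, 103 kept the call, 24 lost it in the same direction and 0 reversed. Shares of all genes in this paragraph are those of the same setting. A minimum of 10 reads gave 4 start windows called higher in KO at 30 ppm (2 as reported, 13.8% of all genes) and 1 at 3 ppm (5 as reported, 14.4%). It gave 3 bodies at 3 ppm (5 as reported, 1.66%) and 1 body between diets in WT (0 as reported). No minimum gave 1 start window (12.8% of all genes) and 1 body (2.97%) at 30 ppm. Equal weight per CpG gave 3 bodies at 3 ppm (2.58% of all genes), and start windows of 2.5 kb gave 5 at 30 ppm (13.5%). The principal transcript's start site or the whole gene gave 1 body between diets in WT. For bodies between diets the share of all genes is given only for the reported setting (0.307% in WT).

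For tiles, a minimum of 10 reads left 33 higher at 30 ppm (66) and 27 at 3 ppm (67), 0 lower at each diet (1 and 4) and 1 between diets in KO (2). Thinning to the shallowest library left 32 higher and 1 lower at 3 ppm and 0 between diets in either genotype. Tiles of 500 bp gave 2 lower at 30 ppm, 1 at 3 ppm, and 1 (KO) and 3 (WT, 1 as reported) between diets, and no minimum gave 2 in WT. The Wald counts of 1 start window and 1 downstream flank were 0 under thinning and with 10 reads, and that of 6 bodies was 4 under each, without Foxn2 and Foxn3. Restricted to start windows, the authors' lists of regions higher in KO, or higher at 30 ppm, held 0 forkhead genes (2.91% and 3.55% of all genes for KO, 0.0481% and 0.0961% for diet). Stretches wider in KO numbered 1 at 30 ppm (0) and 0 at 3 ppm (2) with 1 kb bins, and 1 at 3 ppm with a 30% level. On the fraction scale limma called 0 forkhead start windows (3 as reported), and 0 of all 19924. It called 3 upstream flanks (5 as reported), against 2.18% of all genes. With 10 reads it called 0 forkhead start windows, and 0 of all 16587. It then called 1 upstream flank (5 as reported), against 0.338% of all genes, and 1 downstream flank (4 as reported), against 0.377%. Causes of these changes were not tested.

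Depth and CpG coverage limit start windows most, where at 10 reads the called windows of Foxn4 (both diets), Foxi2 and Foxj1 (3 ppm) had too few CpGs left to be tested and are not among the 196 values.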
